A study of Mus musculus with 19 samples.

Results

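The genes described here are the immunoglobulin heavy-chain variable (Ighv) genes, the segments that encode most of the antigen-contacting part of the antibody heavy chain. They were taken as every row annotated as an immunoglobulin V gene whose symbol starts with Ighv and that is listed in all 4 deposited expression tables. This gave 102 genes in 15 subgroups, of 22101 genes in the series, and all 102 were found in GENCODE release M21. RNA was sequenced in bulk from B lineage cells of mice that had received sheep red blood cells by intraperitoneal injection and were killed on day 28. The 19 libraries fall into 6 groups, all from immunized mice. Splenic germinal centre B cells (sorted as CD95+ and GL7+) came from mice labelled Pik3cg knockout (n = 4) and wild type (n = 3), and splenic naive B cells (CD3-, B220+ and IgD+) from mice labelled knockout (n = 3) and wild type (n = 3). Antibody-secreting cells (CD138+) were sorted from spleen (n = 3) and from bone marrow (n = 3) of mice labelled wild type. Pik3cg encodes the catalytic subunit of phosphoinositide 3-kinase gamma, and the series asks what this kinase does in B cells during an antibody response. The labels give no strain, age, deleted exon or cell-specific Cre, and they do not say which mouse gave which library, so p-values measure the spread between these samples only.

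A B cell builds its heavy chain by joining 1 variable, 1 diversity and 1 joining segment, and its descendants keep that choice. The mix of Ighv transcripts in a sorted population therefore reflects which B cell clones it holds and how much heavy-chain RNA each makes. Naive B cells carry a broad repertoire, germinal centres expand and mutate chosen clones, and antibody-secreting cells transcribe their heavy chain at a very high level. B-1 cells, an innate-like B cell type, are known for recurrent heavy chains, among them chains built from Ighv11-2 that bind phosphatidylcholine. In bulk RNA, fewer cells of a clone and less RNA per cell cannot be told apart, and a share of reads is not a share of cells.

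All members lie on chromosome 12 and are transcribed from the minus strand. The segments below are those on which the results turn, each given as the last 290 bases of its coding exon (mm10, GENCODE release M21 transcripts), up to the end that joins the diversity segment. Ighv11-2 (chr12:114048241-114048530) and Ighv4-1 (chr12:113948282-113948571) led the germinal centre libraries labelled wild type, together with Ighv6-3 (chr12:114391712-114392001). Ighv11-1 (chr12:113981879-113982168) is the nearest relative of Ighv11-2, and capitals mark the 4 bases at which it differs.
Ighv11-2: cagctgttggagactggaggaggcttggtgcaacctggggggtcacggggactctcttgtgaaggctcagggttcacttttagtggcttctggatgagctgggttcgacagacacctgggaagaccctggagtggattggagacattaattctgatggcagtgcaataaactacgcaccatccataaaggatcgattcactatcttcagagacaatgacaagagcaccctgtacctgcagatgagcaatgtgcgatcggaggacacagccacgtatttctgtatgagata
Ighv11-1: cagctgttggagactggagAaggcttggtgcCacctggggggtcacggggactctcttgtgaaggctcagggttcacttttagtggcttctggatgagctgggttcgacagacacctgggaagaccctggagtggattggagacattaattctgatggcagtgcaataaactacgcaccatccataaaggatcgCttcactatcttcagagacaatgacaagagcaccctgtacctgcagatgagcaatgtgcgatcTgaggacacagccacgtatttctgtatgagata
Ighv4-1: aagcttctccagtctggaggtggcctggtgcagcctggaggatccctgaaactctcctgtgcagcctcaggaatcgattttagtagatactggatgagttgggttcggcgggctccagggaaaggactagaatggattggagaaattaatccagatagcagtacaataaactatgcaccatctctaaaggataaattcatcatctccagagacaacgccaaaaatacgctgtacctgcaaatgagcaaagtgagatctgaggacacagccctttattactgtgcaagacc
Ighv6-3: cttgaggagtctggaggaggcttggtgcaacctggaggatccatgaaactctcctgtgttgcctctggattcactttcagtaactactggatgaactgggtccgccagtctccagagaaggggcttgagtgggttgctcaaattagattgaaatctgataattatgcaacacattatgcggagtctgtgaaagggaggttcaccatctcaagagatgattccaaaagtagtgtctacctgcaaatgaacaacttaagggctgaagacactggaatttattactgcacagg
Ighv10-1 (chr12:114479005-114479294) was the largest gene of 1 germinal centre library labelled knockout, and capitals in Ighv10-3 (chr12:114523441-114523730) mark its 10 differences from it. Ighv1-55 (chr12:115208095-115208384) was the largest gene of another library labelled knockout, and Ighv9-3 (chr12:114140692-114140981) had the highest mean share in naive and antibody-secreting cells.
Ighv10-1: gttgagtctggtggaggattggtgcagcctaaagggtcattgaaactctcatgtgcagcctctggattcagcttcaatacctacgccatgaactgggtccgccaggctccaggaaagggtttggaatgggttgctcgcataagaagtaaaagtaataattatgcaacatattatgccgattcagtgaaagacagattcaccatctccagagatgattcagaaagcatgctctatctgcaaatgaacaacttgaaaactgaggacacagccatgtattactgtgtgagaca
Ighv10-3: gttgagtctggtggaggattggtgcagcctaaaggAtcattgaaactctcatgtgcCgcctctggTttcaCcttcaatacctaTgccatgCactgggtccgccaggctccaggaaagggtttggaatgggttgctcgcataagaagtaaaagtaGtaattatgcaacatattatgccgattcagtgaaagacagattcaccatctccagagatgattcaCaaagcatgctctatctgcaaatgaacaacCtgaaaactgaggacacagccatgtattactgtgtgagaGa
Ighv1-55: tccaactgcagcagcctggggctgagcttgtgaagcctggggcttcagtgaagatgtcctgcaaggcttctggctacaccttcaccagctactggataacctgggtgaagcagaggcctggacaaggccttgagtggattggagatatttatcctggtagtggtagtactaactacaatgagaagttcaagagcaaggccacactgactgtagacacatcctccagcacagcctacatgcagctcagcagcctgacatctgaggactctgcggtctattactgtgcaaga
Ighv9-3: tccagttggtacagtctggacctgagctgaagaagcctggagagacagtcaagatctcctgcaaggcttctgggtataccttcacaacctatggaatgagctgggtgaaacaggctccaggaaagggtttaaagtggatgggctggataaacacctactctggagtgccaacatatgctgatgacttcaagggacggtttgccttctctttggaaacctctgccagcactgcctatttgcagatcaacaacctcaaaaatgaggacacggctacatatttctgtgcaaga
Over these 290 bases, 51 of the 102 members were at least 95% identical to another of the 113 segments compared. Ighv11-2 matched Ighv11-1 at 98.6% and Ighv10-1 matched Ighv10-3 at 96.6%, so the split of reads within such pairs is uncertain. Ighv4-1 stood alone, with 76.2% identity to its nearest relative, and Ighv6-3 had 92.1%. Values are counts per 1000000 assigned reads (CPM), and a share is a gene's CPM as a percentage of the sum over the 102 members in that library. Shares are not per length, but dividing by transcript length (at most 461 bases) left the largest gene the same in 19 of 19 libraries and moved no share by more than 4.203 percentage points.

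The libraries held 10.2 to 21.6 M assigned reads. Pik3cg did not separate the labels: it stood at 6.55 to 65.96 CPM in germinal centre libraries labelled knockout and at 19.4 to 56.5 CPM in those labelled wild type, with 94.98 to 127 CPM and 110 to 115 CPM in naive B cells of the same labels. Groups are therefore named by their labels, and no direction below is tied to loss of the gene. The column headers of the naive and antibody-secreting tables read HET for 9 libraries whose labels give a wild-type genotype. Markers of germinal centre B cells (7 genes) summed to 2670 to 3509 CPM in the germinal centre libraries labelled knockout and to 458 to 630 CPM in those labelled wild type, and in the latter the sum was mostly Mki67 (197 to 393 CPM), a proliferation gene, and Fas (197 to 226 CPM), which encodes the sort marker CD95. The defining markers Gcsam, Rgs13 and S1pr2 read 0 in each wild-type replicate, and Bcl6 was at 1.62, 1.05 and 0.408 CPM, below naive cells of that label (7.47 to 11.3 CPM). These libraries therefore go against the cell type name, and "germinal centre" below stands for the CD95+ and GL7+ sort as labelled. T cell genes (9 genes) summed to 986 to 1911 CPM and to 30.2 to 63.9 CPM in the same groups, and the defining markers Cd3d, Cd3e and Cd4 were at 0 in all 3 libraries labelled wild type. Macrophage genes (7 genes) summed to 141 to 1282 CPM against 77.1 to 202 CPM, and erythroid genes (5 genes) to 29.7 to 2971 CPM against at most 2.41 CPM. The part of these differences in the results below was not tested.

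The summed Ighv level was lowest in naive B cells and highest in antibody-secreting cells. Naive libraries labelled wild type had 1076, 1040 and 991 CPM and those labelled knockout 1018, 1036 and 953 CPM, so these groups overlapped. Spleen antibody-secreting cells had 39274, 31968 and 34812 CPM, a mean 34.1 times that of naive cells labelled wild type, and bone marrow cells had 40190, 38784 and 38527 CPM, 37.8 times. Germinal centre libraries labelled wild type lay between, with 2857, 5954 and 5454 CPM. Those labelled knockout had 697, 2245, 2423 and 5273 CPM, which overlapped the group labelled wild type and also reached below naive cells. Levels from separately made tables are set side by side here without a test.

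Naive B cells used many Ighv genes at low shares, and the libraries resembled one another. Ighv9-3 had the highest mean share, with 6.18%, 6.61% and 6.09% in naive cells labelled wild type and 6.35%, 7.86% and 6.88% in those labelled knockout. Ighv1-26 was next in both groups, at 5.04% ± 0.26 (SD, n = 3) and 6.11% ± 0.51 (SD, n = 3). Between 14 and 18 genes made up 50% of the Ighv sum in each naive library. Ighv1, the largest subgroup with 50 members, took 55.6% ± 1.54 (SD, n = 3) in cells labelled wild type and 55.2% ± 2.93 (SD, n = 3) in those labelled knockout. Ighv5 followed at 11.7% and 11.5% and Ighv9 at 8.89% and 10.5%.

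**Figure D1:**
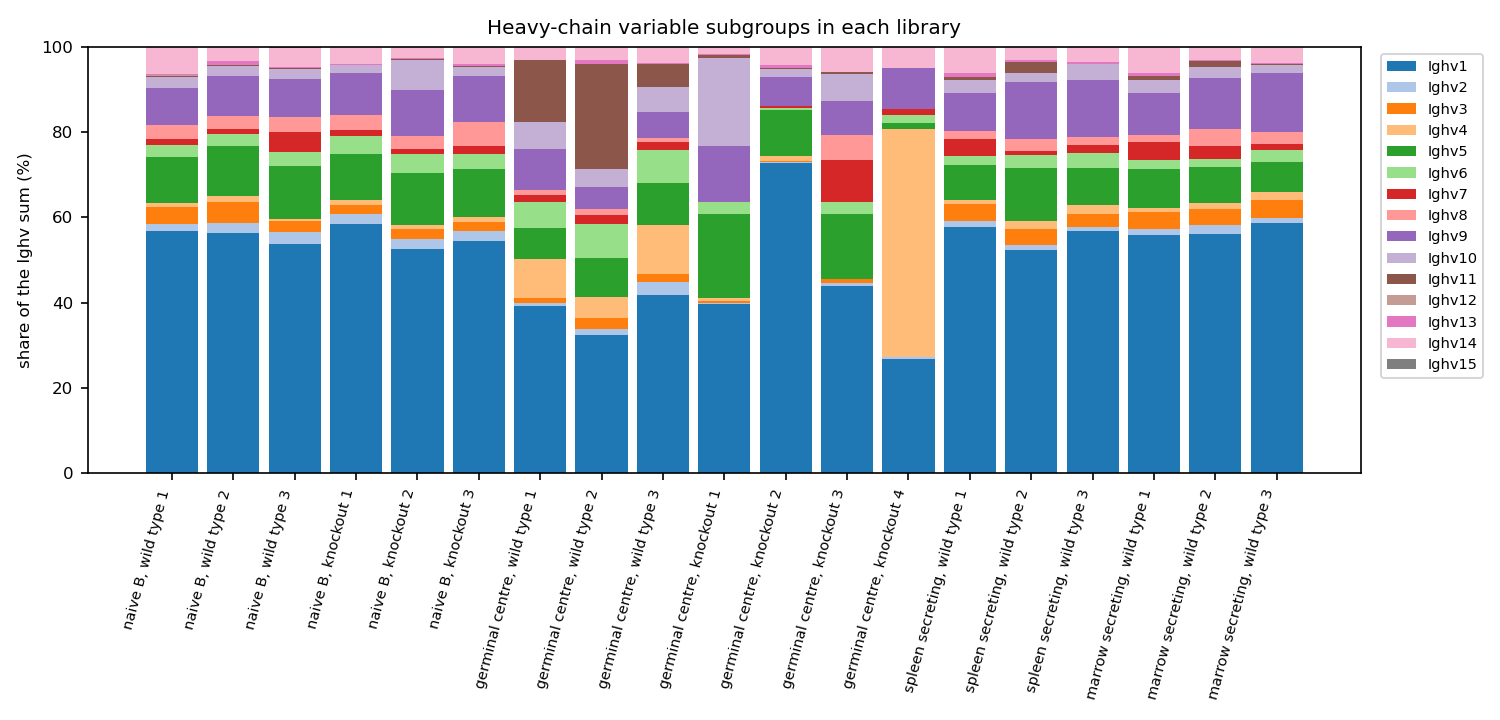
Each bar is 1 library, split into the 15 Ighv subgroups as a percentage of the summed Ighv CPM, with the 6 groups from left to right. Ighv1 takes more than 50% of every naive and antibody-secreting library, Ighv11 takes 5.39% to 24.5% of the germinal centre libraries labelled wild type and at most 2.45% elsewhere, and the germinal centre libraries labelled knockout differ from each other.

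Germinal centre B cells labelled wild type were led by Ighv11-2, Ighv4-1 and Ighv6-3. Together these genes took 29.4%, 35.6% and 23.4% of the Ighv sum in replicates 1, 2 and 3, and each had lower shares in naive cells. Ighv11-2 took 14.5%, 24.5% and 5.32% of Ighv reads in the 3 libraries (415, 1456 and 290.03 CPM). In naive cells it took 0.242%, 0.132% and 0.0798% in the libraries labelled wild type and 0.125%, 0.0514% and 0.115% in those labelled knockout. Every germinal centre library labelled wild type thus lay above every naive library. Antibody-secreting cells had intermediate and scattered values, 0.668%, 2.29% and 0.129% in spleen and 0.949%, 1.34% and 0.172% in bone marrow. In the order of mean shares, germinal centre cells labelled wild type came first (14.8% ± 9.57, SD, n = 3) and overlapped no other group. The remaining groups followed as spleen (1.03%), bone marrow (0.819%), germinal centre labelled knockout (0.339%), naive labelled wild type (0.151%) and naive labelled knockout (0.0971%), and each neighbouring pair in this order overlapped. Ighv11-1, its near-identical neighbour, was at 0.152% or less in all 19 libraries.

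Ighv4-1, the only member of its subgroup, followed a related pattern in wild-type cells. It took 9.22%, 4.90% and 11.4% in germinal centre libraries labelled wild type and 0.523% to 1.42% in all 6 naive libraries, with no overlap between these groups. In spleen and bone marrow antibody-secreting cells it ranged from 0.899% to 2.07%. Ighv6-3 was the steadiest of the leading genes, with 5.64%, 6.24% and 6.71% in germinal centre libraries labelled wild type. Its naive libraries held 2.33% to 3.90% and the antibody-secreting libraries 1.53% to 3.15%, all below the lowest germinal centre value of the group labelled wild type.

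**Figure D2:**
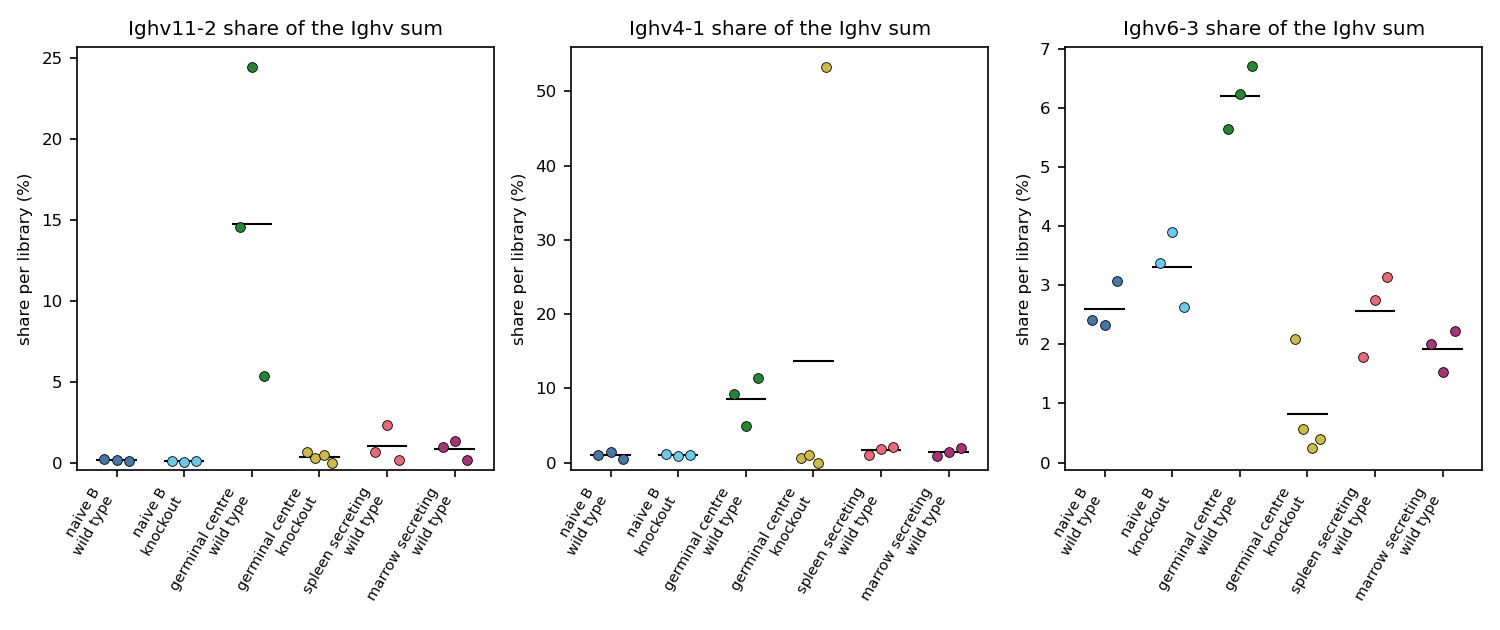
Points are single libraries and lines are group means for the share of Ighv11-2, Ighv4-1 and Ighv6-3 in the summed Ighv CPM (percent), by group. For Ighv11-2 and Ighv6-3 the germinal centre libraries labelled wild type lie above all others, while for Ighv4-1 the highest point is 1 germinal centre library labelled knockout (53.3%).

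Over all members, 37 of 102 shares (36.3%) did not overlap between germinal centre and naive cells labelled wild type, 6 above and 31 below naive. By CPM range, where the summed Ighv level also counts, 46 of the 102 members lay above naive and 0 below, and 60.6% of all genes compared (those averaging 10 CPM or more) did not overlap. Here and below, range counts of members carry no such filter, so they are not like for like with the all-gene figure. Shares have no all-gene counterpart. The 6 with a share above naive were Ighv10-1, Ighv10-3, Ighv11-2, Ighv14-3, Ighv4-1 and Ighv6-3, spread over 5 subgroups. The Ighv1 subgroup had a lower share, 37.8% ± 4.84 (SD, n = 3) against 55.6% ± 1.54 (SD, n = 3). With the largest gene of each library left out, Ighv1 took 45.3% and 59.3%, so the difference was smaller. Ighv8 also lay below naive, at 0.991% to 1.44% against 3.07% to 3.54%.

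Germinal centre libraries labelled knockout were each led by a different gene. Replicate 1 had Ighv10-1 at 20.04%, Ighv5-6 at 15.0% and Ighv9-3 at 11.0%. Replicate 2 had Ighv1-55 at 21.99%, ahead of Ighv1-64 at 7.48% and Ighv1-52 at 7.04%. Replicate 3 was more even, with Ighv7-3 at 9.73%, Ighv1-72 at 6.46% and Ighv9-3 at 6.38%, and replicate 4 had Ighv4-1 at 53.3%, Ighv1-9 at 10.6% and Ighv9-3 at 9.28%. No gene led more than 1 of these 4 libraries. Outside the library each led, Ighv10-1 took 1.59%, 6.04% and 0.126% in replicates 2 to 4, so it was also among the larger genes of replicate 3. Ighv1-55 took 0.556%, 0.564% and 1.47% in replicates 1, 3 and 4, Ighv7-3 took 0.0908%, 0% and 0.597% in replicates 1, 2 and 4, and Ighv4-1 took 0.553%, 0.970% and 0% in replicates 1 to 3. Ighv9-3 was among the 3 largest genes of 3 of the 4 libraries, at 11.0%, 0.484%, 6.38% and 9.28%, and overlapped the group labelled wild type (5.51%, 3.87% and 5.003%).

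The 3 genes that led the group labelled wild type were compared between genotypes first. They were picked for high shares in these same libraries, which favours lower values under the knockout label. The adjusted p-values do not allow for that choice. Ighv11-2 passed the filter on the mean only through the group labelled wild type, with a mean of 5.35 CPM in that labelled knockout. Ighv11-2 measured 415, 1456 and 290.03 CPM in the libraries labelled wild type and 4.43, 5.93, 11.1 and 0 CPM in those labelled knockout. A count of 0 in replicate 4 allows up to 0.158 CPM (3 reads). All 4 knockout values lay below all wild-type values, and the log2 difference on the log2(CPM + 1) scale was −6.93 (SE 0.87, 95% interval −8.89 to −4.96), with a limma Benjamini-Hochberg adjusted p of 0.0014. Ighv6-3 fell in the same way, from 161, 371 and 365.8 CPM to 14.6, 12.6, 5.83 and 21.1 CPM. Its limma log2 difference was −4.39 (SE 0.48), adjusted p = 0.00076.

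Ighv4-1 was not called, and the libraries labelled knockout differed widely. Its levels were 264, 292 and 621 CPM in wild-type replicates 1 to 3 and 3.85, 21.8, 0 and 2812 CPM in knockout replicates 1 to 4. Knockout replicates 1 to 3 lay below all wild-type libraries and replicate 4 above all of them. The limma log2 difference was −3.95 (SE 2.20, 95% interval −8.92 to 1.03), adjusted p = 0.282. Without knockout replicate 4 it was −6.24 (SE 0.99) with a limma adjusted p of 0.00673, and with the replicate number as a block −6.24 and 0.0115. Knockout replicate 4 has no partner of its number, so the block fit also takes the difference without it and is not a separate check. The count of 0 in replicate 3 allows up to 0.182 CPM.

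Of the 102 members, 57 reached a mean of 10 CPM in the germinal centre table and were tested. Limma called 9 of them (15.8%) at an adjusted p under 0.05, all 9 with lower values under the knockout label and 0 with higher ones. Over all 8522 genes tested 13.6% were called, 8.54% higher and 5.09% lower. The filter takes the mean over both groups: 19 of the 57 tested members, and 8 of the 9 called, averaged 10 CPM only in the group labelled wild type, so the members tested lean towards those high there. Beside Ighv11-2 and Ighv6-3 the called genes were Ighv1-5, Ighv1-74, Ighv1-85, Ighv10-3, Ighv14-4, Ighv2-2 and Ighv3-6, from 5 subgroups. Ighv10-3 fell from 88.9, 105 and 203 CPM to 3.57, 6.36, 8.82 and 2.15 CPM (limma log2 difference −4.46, SE 0.58, adjusted p = 0.0017). Its relative Ighv10-1 differed: it stood at 90.9, 141 and 111 CPM and at 140, 35.7, 146 and 6.62 CPM, and the groups overlapped (log2 difference −1.21, limma adjusted p = 0.434). Ighv1-85, the member farthest from the joining segments, fell from 44.6, 39.4 and 55.9 CPM to 0, 0.721, 0 and 0.735 CPM (limma log2 difference −5.16, adjusted p = 0.00326). The other 5 called genes had log2 differences from −2.98 to −4.26.

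The number of calls depended on single libraries. Leaving out wild-type replicate 1, 2 or 3 gave 5, 4 and 4 calls among 54, 52 and 49 members tested. Leaving out knockout replicate 1, 2, 3 or 4 gave 9, 10, 15 and 11 among 57, 57, 55 and 57. Calls over all genes also fell, from 1162 to 732, 603 and 712 without wild-type replicate 1, 2 or 3. They were 990, 1134, 1013 and 1031 without knockout replicate 1, 2, 3 or 4. Ighv1-85, Ighv10-3, Ighv11-2 and Ighv6-3 were called each time. Because the summed Ighv level also differed between libraries, the Ighv rows were rescaled to a common total and the fit repeated, an alternative chosen after the data were seen. Of 54 members then tested, 5 were lower (Ighv1-5, Ighv1-85, Ighv10-3, Ighv11-2 and Ighv6-3) and 1 higher. On that scale Ighv11-2 had a log2 difference of −5.77 and a limma adjusted p of 0.00701. The gene higher on that scale was Ighv1-9, with shares of 3.92%, 4.19%, 4.92% and 10.6% in libraries labelled knockout and 1.62%, 1.04% and 1.05% in those labelled wild type. Its log2 difference was 2.14 (SE 0.36) with a limma adjusted p of 0.00559, and in CPM as deposited it was 1.06 (SE 0.81), adjusted p = 0.434.

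As shares, 19 of the 102 members (18.6%) had ranges that did not overlap between the germinal centre groups, 18 lower and 1 higher in the libraries labelled knockout. By CPM range, 28 of all 102 members were lower and 0 higher. Of all genes averaging 10 CPM or more, a filter not put on these members, 27.4% did not overlap. Of the subgroups, Ighv2, Ighv3, Ighv6 and Ighv11 lay below the group labelled wild type in all 4 libraries. Ighv11 took 0% to 0.635% against 5.39% to 24.5%, and Ighv6 took 0.627% to 2.93% against 6.20% to 7.79%. Ighv1 ranged from 26.8% to 72.8% in the libraries labelled knockout and spanned the 32.5% to 41.9% of those labelled wild type.

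In naive B cells the same comparison called no Ighv gene. Of 38 members tested, limma called 0, as it called 0.0% of all 8832 genes, and the smallest adjusted p of a member was 0.74. At an unadjusted p under 0.05 there were 2 members, Ighv14-4 (log2 difference −1.17, limma adjusted p = 0.74) and Ighv5-17 (−0.61, adjusted p = 0.74), against 587 of all genes. Ighv11-2 was below 10 CPM in this table and was not tested, Ighv4-1 had a log2 difference of 0.12 (95% interval −0.98 to 1.21) and Ighv6-3 one of 0.28 (95% interval −0.30 to 0.86). Shares of 21 members (20.6%) did not overlap between the naive groups, 11 higher and 10 lower, and by CPM range 10 members were higher and 13 lower, where 13.6% of all genes tested did not overlap. The member counts take every member, tested or not, unlike the all-gene figure. The difference between the germinal centre and the naive comparison was not tested.

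The breadth of usage followed the same groups. It was summarised as the effective number of genes, the number of equally used genes that would give the same Shannon entropy. Naive libraries labelled wild type had 56.1, 52.1 and 56.3 and those labelled knockout 52.8, 49.1 and 55.8. Spleen antibody-secreting cells had 51.6, 49.4 and 48.9 and bone marrow cells 51.0, 48.5 and 48.4, below the naive libraries labelled wild type and overlapping those labelled knockout. Germinal centre libraries had the narrowest usage, with 36.6, 31.9 and 45.5 in those labelled wild type and 19.5, 21.5, 29.3 and 7.13 in those labelled knockout. Every library labelled knockout lay below every library labelled wild type by this index. By the inverse Simpson index, which weighs the largest genes more, the groups overlapped, with 10.9, 12.5, 22.1 and 3.24 in the libraries labelled knockout and 20.7, 12.9 and 28.2 in those labelled wild type. In replicate 4 of the group labelled knockout, 1 gene, Ighv4-1, made up more than 50% of the sum, whereas 4, 6 and 9 genes did in the other 3 and 8 to 11 in the group labelled wild type.

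**Figure D3:**
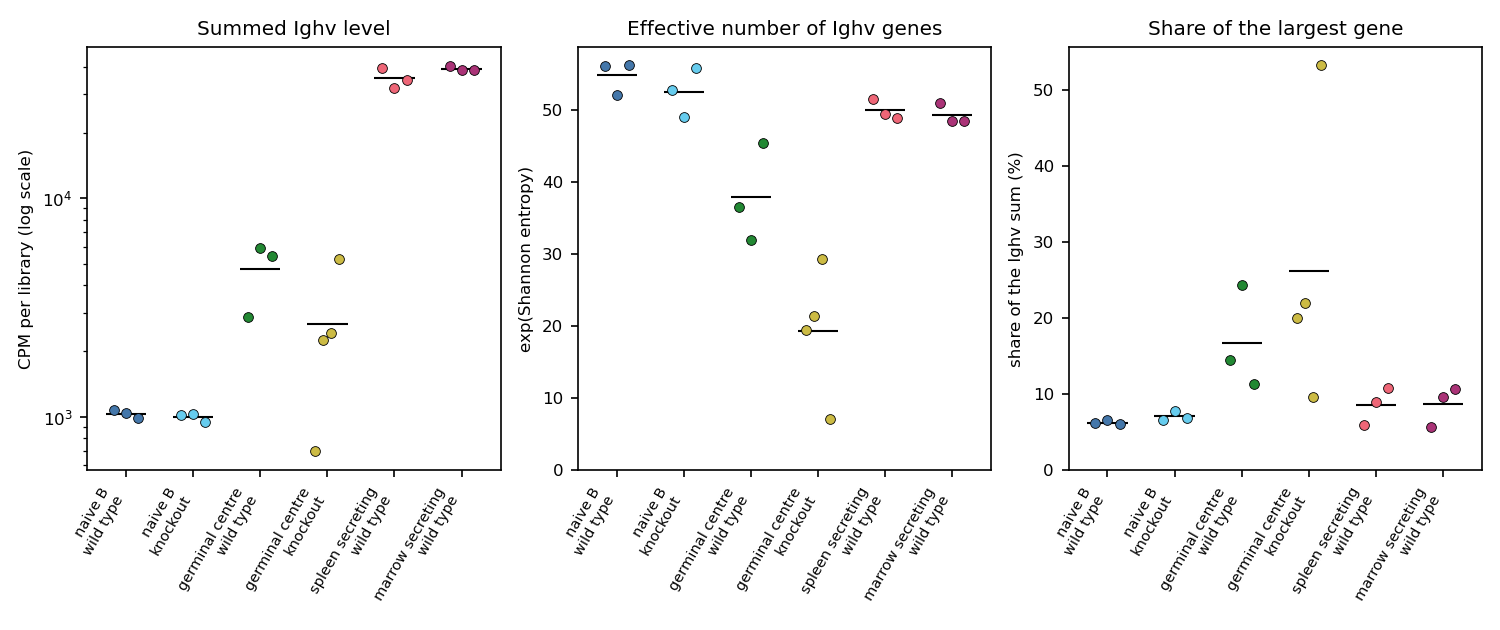
Points are libraries and lines group means for the summed Ighv level (CPM, log axis), the effective number of Ighv genes and the share of the largest gene (percent). Antibody-secreting cells have the highest level and effective numbers of 48.4 to 51.6, and the germinal centre libraries labelled knockout have the lowest effective numbers from Shannon entropy (7.13 to 29.3), while by the inverse Simpson index they overlap those labelled wild type.

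Estimated Ighv reads are set beside the effective numbers here, and the part of depth in the breadth of usage was not tested. Replicate 1 of the germinal centre group labelled knockout held an estimated 12120 Ighv reads and an effective number of 19.5, and the naive libraries held 10412 to 15570 reads and 49.1 to 56.3. Replicate 4 held an estimated 100378 reads, near the 107030 and 119294 of wild-type replicates 3 and 2, with an effective number of 7.13. Between 39 and 47 of the 102 members were under 3 reads in the libraries labelled knockout, against 3 to 17 in those labelled wild type and 9 to 14 in naive cells.

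Usage was also compared library by library, as the overlap of 2 libraries, the sum over genes of the smaller of the 2 shares. Naive libraries shared 79.6% to 85.2% within a genotype label and 78.0% to 83.4% between labels. The 3 germinal centre libraries labelled wild type shared 69.4% to 75.6% with each other. The 4 labelled knockout shared only 20.4% to 34.1% with each other (median 28.7% over 6 pairs), and 29.2% to 41.3% with the group labelled wild type. They overlapped naive cells labelled knockout by 31.2% to 52.2%, with a median of 46.3% over 12 pairs. These overlaps share libraries and are given as a description.

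**Figure D4:**
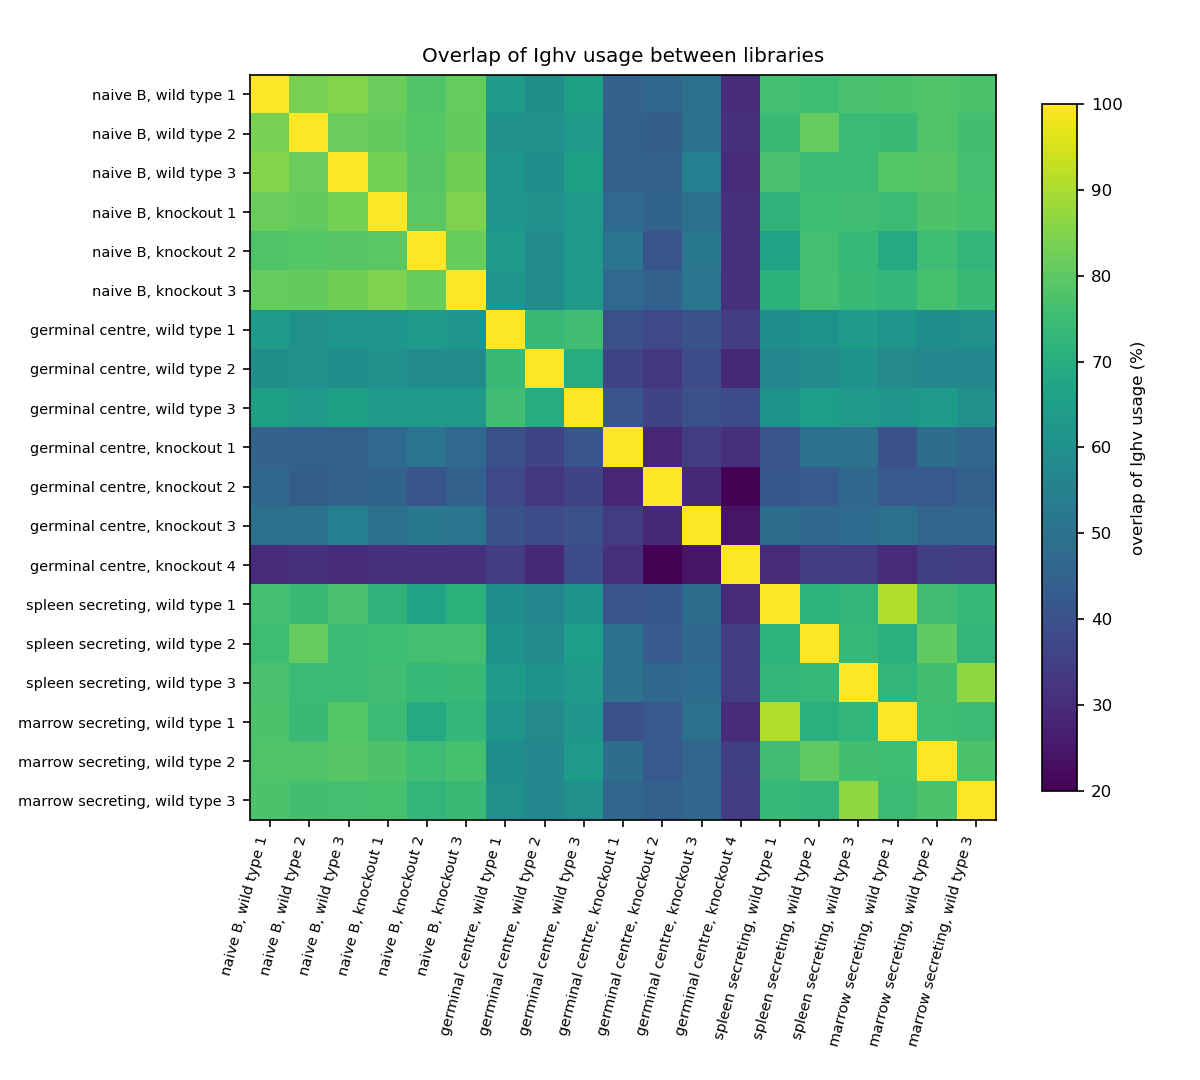
Each cell is the overlap of Ighv usage between 2 of the 19 libraries (percent, colour scale from 20 to 100). The germinal centre libraries labelled knockout form the dark band, with 20.4% to 34.1% among themselves, and the bright cells off the diagonal join spleen and bone marrow libraries of the same number (80.5% to 90.8%).

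Antibody-secreting cells used Ighv genes much as naive cells did, at a far higher level. Ighv9-3 took 4.71%, 9.06% and 10.8% in spleen and 5.55%, 9.66% and 10.8% in bone marrow, and Ighv1 took 55.6% ± 2.89 (SD, n = 3) and 56.9% ± 1.58 (SD, n = 3). Against naive cells labelled wild type, shares of 20 members (19.6%) did not overlap in spleen and of 21 (20.6%) in bone marrow. By CPM range, 93 members in spleen and 87 in bone marrow lay above naive and 0 below. Of all genes averaging 10 CPM or more, a filter not put on the members, 89.2% and 92.4% did not overlap. The genes with a lower share in both included Ighv1-80 (1.005%, 1.02% and 1.02% in spleen and 0.675%, 1.35% and 1.05% in bone marrow, against 2.23%, 2.30% and 2.40%) and Ighv5-2 (0.0176%, 0.0341% and 0.0180% in spleen and 0.0357%, 0.0105% and 0.0111% in bone marrow, against 0.306%, 0.173% and 0.435%).

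Between bone marrow and spleen, 5 of 102 shares (4.9%) did not overlap, and by CPM range 1 member was higher and 3 were lower. Of all genes averaging 10 CPM or more, 29.3% did not overlap. The all-gene figures of this paragraph use that filter, and the member counts do not. The 5 were Ighv1-63, higher in bone marrow, and Ighv1-9, Ighv3-3, Ighv5-12 and Ighv7-1, lower. Germinal centre and spleen antibody-secreting cells labelled wild type differed more, with 23 shares (22.5%) that did not overlap, 9 above and 14 below. By CPM range 0 members were above and 76 below in germinal centre cells, where 82.8% of all genes did not overlap. Ighv11-2, Ighv14-3, Ighv4-1, Ighv6-3 and Ighv6-6 were among those higher in germinal centre cells. Germinal centre and naive cells labelled knockout had 25 such shares (24.5%), 24 of them lower, and Ighv1-9 was the only gene above. By CPM range 0 members were higher and 20 lower, where 48.3% of all genes did not overlap.

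Spleen and bone marrow libraries with the same replicate number matched in their Ighv usage. The overlap was 90.8%, 80.5% and 86.7% for replicates 1, 2 and 3, and 70.9% to 75.8% for the 6 pairs with different numbers. Every same-number pair thus lay above every different-number pair. Ighv1-82 is an example, with 6.04%, 1.53% and 1.95% in spleen and 5.72%, 1.93% and 1.45% in bone marrow, high in replicate 1 of both tissues. Ighv1-78 was high in replicate 2 of both (1.26%, 2.65% and 0.690% in spleen, 0.846%, 2.66% and 0.548% in bone marrow). Ighv11-2 was also highest in replicate 2 and lowest in replicate 3 of both tissues. Of 51 genes with a mean share of at least 0.5% in spleen, 42 were highest in the same number in both tissues. Kappa variable genes (98 genes) gave overlaps of 87.7%, 83.6% and 85.8% for the same number and 71.0% to 75.8% for different numbers. Across 83 Ighv genes, deviations from the group mean correlated at r = 0.81, 0.62 and 0.73 for the same numbers, while across 3148 genes other than immunoglobulin genes the values were −0.00, 0.07 and 0.14. Within the 3 same-number pairs, which the ranges above do not use, 17 of 102 shares were higher and 16 lower in bone marrow in all 3, and 69 were mixed. This description was added after the data were seen. The same count over all genes was not made, so no difference between the tissues is read from it. The shares higher in all 3 pairs included Ighv1-26 (3.39%, 4.83% and 2.76% in spleen, 3.74%, 6.31% and 4.40% in bone marrow). Those lower included Ighv14-4 (1.92%, 1.15% and 0.752% in spleen, 1.30%, 0.640% and 0.322% in bone marrow). The correlations are across genes within a pair of libraries, and genes are not independent replicates. The genes named as examples were chosen after their values were seen, and the labels do not say whether a number marks 1 mouse.

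Position along the locus was described by dividing the members into 3 sets of 34 by distance from the Ighj1 joining segment. The nearest set lies 149 to 833 kb away and the farthest 1625 to 2570 kb. The nearest set took 30.7% ± 2.21 (SD, n = 3) of Ighv reads in naive cells labelled wild type and 45.3% ± 4.78 (SD, n = 3) in germinal centre cells labelled wild type, without overlap. The farthest set took 39.4% and 26.7%. Ighv11-2, Ighv4-1 and Ighv9-3 all belong to the nearest set, at 618, 518 and 711 kb. In germinal centre libraries labelled knockout the nearest set ranged from 23.5% to 70.8%, which spanned all other groups. Spleen and bone marrow antibody-secreting cells had 30.2% and 29.6%, like naive cells.

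**Figure D5:**
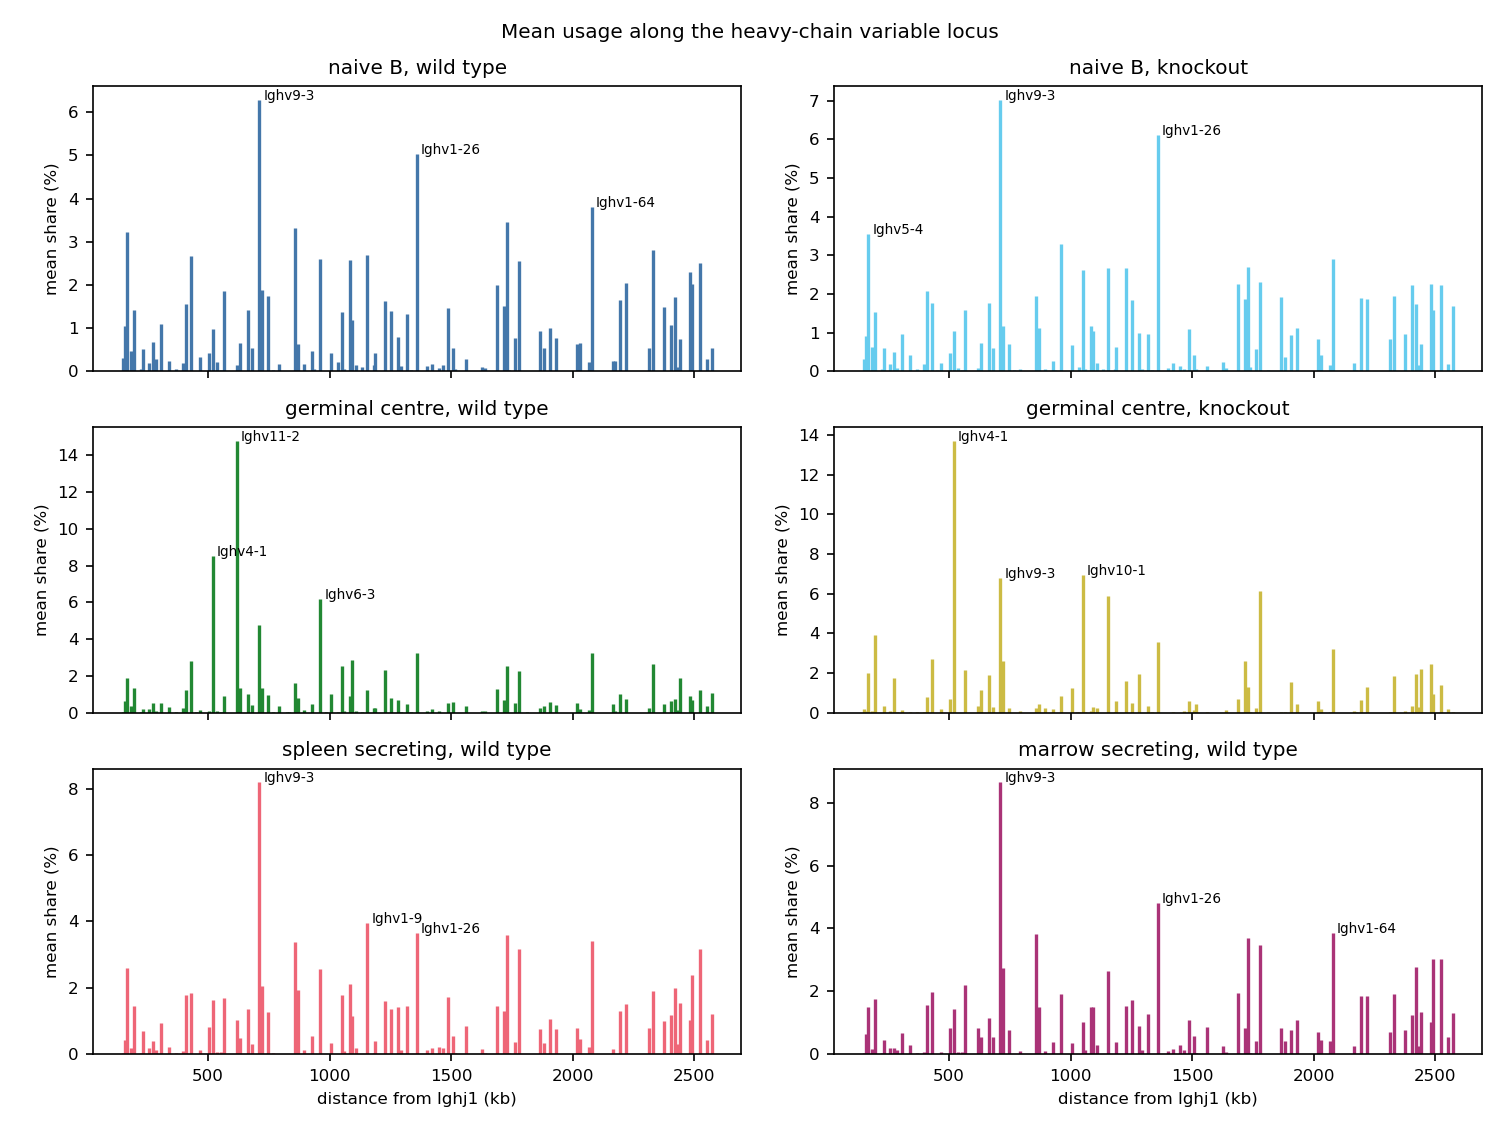
Bars are the mean share of each Ighv gene (percent) against its distance from Ighj1 (kb) in the 6 groups, each panel with its own vertical scale and its 3 largest genes named. Usage is spread along the locus in naive and antibody-secreting cells, and the tallest bars of germinal centre cells labelled wild type (Ighv4-1, Ighv11-2 and Ighv6-3) lie within the first 962 kb.

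Several genes known from other settings were minor in most libraries. Ighv12-3, the other heavy-chain gene of phosphatidylcholine-binding B-1 cells, was at 0.0783% or less in every library. Ighv7-1, known from antibodies to phosphorylcholine, was at 0.656% or less, and its highest germinal centre value was 0.654% in knockout replicate 4. Ighv5-2, a segment close to the joining end that is used often in early B cell development, was at 0.545% or less. Ighv1-72, known from responses to the hapten NP, took 3.30%, 2.08% and 2.50% in germinal centre libraries labelled wild type and 0.503%, 0.308%, 6.46% and 0.129% in those labelled knockout. It is 99.3% identical to Ighv1-62-3, and limma gave it a log2 difference of −3.02 (SE 1.08), adjusted p = 0.1.

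The light-chain gene known to pair with Ighv11-2, Igkv14-126, was examined after the heavy-chain values were seen. It measured 408, 1593 and 460 CPM in germinal centre libraries labelled wild type and 0, 3.94, 0 and 1.58 CPM in those labelled knockout. The groups did not overlap, and limma gave a log2 difference of −8.47 (SE 0.75), adjusted p = 0.00029. Like Ighv11-2, it passed the filter on the mean in this table only through the group labelled wild type. The adjusted p does not allow for that or for its choice after the values were seen. The library with the most Ighv11-2, wild-type replicate 2, also had the most Igkv14-126, and among spleen and bone marrow libraries replicate 2 was highest for both. As a share of kappa variable reads Igkv14-126 took 3.21%, 6.22% and 1.77% in the group labelled wild type. In the naive table its log2 difference was −0.03 (95% interval −0.83 to 0.77).

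Other genes of B-1 cells did not all follow Ighv11-2. Of 10 listed, 7 were tested in the germinal centre table, and limma called 0 higher and 2 lower under the knockout label, Cd9 (log2 difference −1.003, adjusted p = 0.042) and Plscr1 (−2.40, adjusted p = 0.00847), where 5.09% of all genes tested were called lower and 8.54% higher. The 7 genes had a median log2 difference of 2.08, opposite in sign to the 2 called, against 0.03 over all genes tested. Cd5, Spn, Ahnak and Cd300lf passed the filter on the mean only through the group labelled knockout, and Bhlhe41 only through that labelled wild type. The filter thus leans the median upward, and nothing is read from its sign. The list summed to 243 to 353 CPM in the group labelled wild type and to 189 to 321 CPM in that labelled knockout. Cd5, a surface marker of B-1a cells that T cells also express, was at 4.997, 0.0998 and 4.08 CPM and at 23.9, 93.7, 0 and 30.6 CPM. Bhlhe41, a transcription factor of B-1a cells, was at 32.7, 26.1 and 27.0 CPM and at 7.30, 9.32, 16.1 and 2.73 CPM, without overlap (limma log2 difference −1.78, adjusted p = 0.112). Zbtb32 was at 0, 1.35 and 0 CPM and at 11.2, 6.66, 15.4 and 16.1 CPM.

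The constant genes joined to these variable segments also differed between the germinal centre groups. Ighm, the constant gene of IgM, made up 86.3%, 97.6% and 96.2% of heavy-chain constant reads in libraries labelled wild type and 73.3%, 30.1%, 38.6% and 40.7% in those labelled knockout. Its limma log2 difference was −2.14 (SE 0.32), adjusted p = 0.00291. Igha, the constant gene of IgA, took 3.23%, 42.5%, 39.9% and 29.1% in libraries labelled knockout, against 4.92%, 0.0949% and 0.867% (log2 difference 3.72, limma adjusted p = 0.111). In antibody-secreting cells Igha took 43.5% to 95.6%.

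Of 9 genes of antibody-secreting cells tested in the germinal centre table, limma called 4 lower under the knockout label (Irf4, Mzb1, Prdm1 and Xbp1) and 0 higher, with a median log2 difference of −1.88 over the 9. The sum of these genes overlapped, at 7041 to 11340 CPM in libraries labelled wild type and 4105 to 11940 CPM in those labelled knockout, and Jchain, the joining chain of IgA and IgM, was at 2071 to 4775 CPM and 2833 to 10420 CPM. Of 7 germinal centre genes 6 were higher, and of 8 tested T cell genes 8 were higher, including Cd3d, Cd3e and Cd4. Cd3d, Cd3e, Cd3g, Cd4, Trbc2, Gcsam, Rgs13 and S1pr2 read 0 in every library labelled wild type. These genes, and Bcl6, Trac and Trbc1, passed the filter on the mean only through the group labelled knockout. The filter thus leaned these counts towards higher values. Prdm1, called lower, passed it only through the group labelled wild type. Over all genes tested, 8.54% were called higher and 5.09% lower. No list had a gene called in the naive table (0 of the genes tested). The part of these differences in the Ighv results was not tested.

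Few members tracked Ighv11-2 or Ighv4-1 over all 19 libraries. Among 50 genes with a mean share of at least 0.5%, the shares most like those of Ighv11-2 by Spearman correlation were Ighv10-3 (rho = 0.44), Ighv10-1 and Ighv1-78 (0.30 each). For Ighv4-1 they were Ighv6-3 (0.37), Ighv14-3 (0.36) and Ighv1-85 (0.29). Shares within a library sum to 100%, and the libraries of a group share their sort and table, so these values are descriptions.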

How the data were processed

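Bulk RNA-seq reads of 19 libraries were aligned with STAR to mm10, per the submitters' processing notes. The counting tool was not given in the sources used here, nor were versions, annotation or strand setting. The authors deposited CPM in 4 tables whose columns sum to 1000000. A constant of 0.0001 in the germinal centre table was subtracted, and 19 names turned into dates were dropped from the other tables. Depth was read from the worth of 1 read. A whole number of reads (tolerance 0.02, values below 1000 reads) was found for 61.6% to 67.8% of values per germinal centre library and for 85.3% to 88.9% elsewhere, and no count test was run. For Ighv values alone it was 34.4% to 69.4% per germinal centre library and 100.0% in every other library. Many Ighv values of the germinal centre table are thus not whole reads, and its estimated Ighv reads are approximate. The part of this in comparisons of shares between tables was not tested. The 3-read floors cover counting error only.

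Limma 3.58.1 (lmFit, eBayes with trend, R 4.3.3) was run on log2(CPM + 1), a scale that understates changes of low genes, for genes averaging 10 CPM or more within the germinal centre table and within the naive table. Genes with a Benjamini-Hochberg adjusted p under 0.05, over all genes tested, were called. On simulated germinal centre data (8522 genes) the fit found 24%, 40%, 66% and 80% of genes with 2-, 4-, 8- and 16-fold changes, with 2 false among 107 calls. On simulated naive data (8832 genes) it found 30%, 76%, 92% and 98%, with 4 false among 152 calls. Same-numbered libraries of the 2 genotype labels did not deviate together (r = 0.06, −0.01 and −0.00 in germinal centre and −0.01, 0.04 and −0.02 in naive cells, across genes other than immunoglobulin genes), nor did germinal centre libraries numbered by column header (r = 0.06, 0.04 and 0.02). This measure was also low for same-numbered spleen and bone marrow libraries, whose Ighv usage matched, so it cannot exclude pairing. Numbers were not taken as pairs in the main fit, and fits with a block are given below. Shares, entropy and overlaps used Python 3.11.15, pandas 2.3.3 and SciPy 1.17.1, sequence comparison Biopython 1.88, and figures matplotlib 3.10.9.

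Named genes are Ighv11-2 and Ighv4-1, the 3 genes of highest mean share in each group, those above 10% in any library, the 5 largest called changes in each direction without overlap, 11 fixed Ighv genes, the heavy-chain constant genes, Pik3cg, and the genes most similar by Spearman correlation. Other genes named as examples were chosen after their values were seen. The members and all lists were chosen with earlier results of these data known. Alternatives covered the pseudocount, filter, scaling, block, denominator, diversity index and each library left out.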

Additional observations from a re-analysis of the deposited data

Results flagged for a closer look

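In the 4 germinal centre libraries labelled knockout, 1 library stood far from the other 3 in 9 of 39 quantities examined. Far means a gap, as part of the range, above the 95% limit of Dixon's test, which chance exceeds in about 1 of 20 groups. That rate cannot be set against the 9 of 39, because the quantities depend on each other and some were picked for high values. Shares within a library have a fixed sum, and the Ighv4 subgroup and Ighv4-1 are the same quantity. Ighv5-6 was named only because it exceeded 10% in a library, and Ighv1-55, Ighv1-9 and Ighv4-1 met that rule beside others. No excess over chance is read from the count. Replicate 4 stood apart for the Ighv4 subgroup and its only member Ighv4-1 (both 53.3%), for Ighv1-9 (10.6%) and for Ighv7-1 (0.654%). Replicate 3 stood apart for the Ighv7 subgroup (9.80%), the Ighv8 subgroup (5.93%) and Ighv1-72 (6.46%). Replicate 2 stood apart for Ighv1-55 (21.99%) and replicate 1 for Ighv5-6 (15.0%). Each of the 4 libraries thus appears at least once.

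The share ranges of Ighv1-85 lay apart in opposite directions in the 2 cell types. Its share was 1.07 percentage points lower (−1.07) on average in germinal centre libraries labelled knockout than in those labelled wild type, and in naive cells every library labelled knockout (1.10%, 3.14% and 0.822%) lay above every library labelled wild type (0.377%, 0.478% and 0.736%). The difference between the cell types was not tested.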

How the results depend on the processing

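Limma called 9 Ighv genes in germinal centre cells as deposited, 6 to 13 under the other pseudocounts, scalings and no filter, 3 with a filter of at least 50 CPM, and from 4 to 15 with each library left out. Over all genes it called 1162 as deposited and 603 to 1134 with each library left out. No Ighv log2 difference followed over the alternatives changed sign where the gene was called in either fit. Sign changes of genes called in neither fit were not counted. With the replicate number as a block, the count was 9 in germinal centre and 0 in naive cells, but Ighv1-53, Ighv1-69 and Ighv4-1 replaced Ighv1-74, Ighv14-4 and Ighv2-2. Knockout replicate 4 has no partner, so a block takes the germinal centre difference without it. The column headers number wild-type libraries 2 and 3 the other way round than the titles used here. With the header number as a block, an alternative added after the data were seen, the count was also 9, with Ighv1-53, Ighv1-69 and Ighv4-1 in place of Ighv1-5, Ighv1-74 and Ighv2-2. In naive cells 0 genes were called under every alternative run. Without the largest gene of each library, mean shares for naive labelled wild type, germinal centre labelled wild type, spleen and bone marrow were 59.3%, 45.3%, 58.7% and 60.4% for Ighv1. Ighv9 was at 2.77% (naive labelled wild type), 6.02% (naive labelled knockout), 13.6% (germinal centre labelled knockout), 5.60% (spleen) and 5.42% (bone marrow). Ighv5 was at 12.4% in naive cells labelled knockout, and in germinal centre cells labelled wild type Ighv5 was at 10.7%, Ighv6 at 8.72% and Ighv11 at 2.08%. Ighv10 was at 2.72% in naive cells labelled wild type. With only members of a mean of at least 10 CPM, Ighv11 was at 0.0984% in naive cells labelled knockout and the effective number at 51.7 in those labelled wild type. As the inverse Simpson index, the effective number was 41.0 and 38.5 in naive cells labelled wild type and knockout, 20.6 and 12.2 in germinal centre cells labelled wild type and knockout, 35.8 in spleen and 34.9 in bone marrow. In each germinal centre library labelled knockout, 39 to 47 members were under 3 reads, too few to set a share.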

Other observations

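Rows that the members leave out were small. Ighv rows annotated as pseudogenes came to 0.153% to 0.832% of the members' sum, and the 7 Ighv genes listed in only 3 of the 4 tables came to 0.00824% to 0.0925%.

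Ighe, the constant gene of IgE, was low but fell in germinal centre libraries labelled knockout. It made up 0.877%, 0.289% and 0.316% of heavy-chain constant reads in libraries labelled wild type and 0%, 0%, 0.0467% and 0.0716% in those labelled knockout, without overlap (limma log2 difference −5.23, adjusted p = 0.0135). Ighe passed the filter on the mean only through the group labelled wild type, for which the adjusted p does not allow. Ighg2b, the constant gene of IgG2b, rose, from 1.12%, 0.0104% and 0.0189% to 13.0%, 11.7%, 14.7% and 2.85% (log2 difference 6.02, limma adjusted p = 0.00909).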
